A study of Mus musculus with 28 samples.

Results

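The addition of NKX2.5 to a 4-factor reprogramming mixture was examined by setting 3 arrays of mouse embryonic fibroblasts (MEFs) that received HNGMT against 3 arrays of MEFs that received HGMT, chosen by their sample titles, 6 of the 28 arrays of the series. HNGMT cells received lentiviruses for Hand2, NKX2.5, GATA4, MEF2C and TBX5. HGMT cells received the same viruses except that for NKX2.5. All 6 cultures also received rtTA, the activator that switches on the factors in the presence of 2 μg/mL doxycycline, and a TroponinT-GCaMP5-Zeo reporter, which gives zeocin resistance and a calcium sensor to cells that use the troponin T promoter. Selection lasted 7 days at 300 μg/mL zeocin, and RNA was taken on day 21 after transduction, so each array shows the mixed population that survived selection. The labels call the replicates independent biological samples. The other 22 arrays of the series hold MEFs without factors (0F) and MEFs given GMT, NGMT, DMT or DMNT, where D stands for MYOCD. The same doxycycline and zeocin treatment is recorded for the cells given factors, and neither is recorded for 0F. All were taken on day 21. These 22 arrays were used to estimate the spread between replicates and for levels set beside those of HNGMT and HGMT.

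NKX2-5 is a homeodomain transcription factor of the early heart that binds DNA together with GATA4 and TBX5. Its best known target is Nppa, the gene of atrial natriuretic peptide, which atrial muscle secretes and fetal heart muscle makes throughout. Hand2 is a basic helix-loop-helix factor needed for the right ventricle, and it can be added to GATA4, MEF2C and TBX5 to turn fibroblasts into induced cardiomyocytes.

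The upstream bases of Nppa and Nppb, the gene of brain natriuretic peptide, are shown because these neighbouring and related genes gave different results. They are from the RefSeq promoter table (GRCm38.p6), run 5′ to 3′ and end at the base before the transcription start. The Nppa stretch is chr4:148000472-148000721 on the plus strand. Capitals in it mark a match to the T-box motif AGGTGT, which lies on the minus strand, and a match to the NKX2-5 motif TNAAGTG on the plus strand. The matches begin at -248 and -241 from the start and do not overlap. The Nppb stretch is chr4:147985650-147985899 on the plus strand, and its capitals mark a match to the GATA motif AGATAA at -84.
Nppa: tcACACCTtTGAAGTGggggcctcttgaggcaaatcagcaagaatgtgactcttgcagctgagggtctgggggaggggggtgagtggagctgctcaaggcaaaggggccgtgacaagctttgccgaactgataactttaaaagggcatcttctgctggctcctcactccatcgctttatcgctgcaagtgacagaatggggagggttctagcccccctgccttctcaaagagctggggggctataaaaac
Nppb: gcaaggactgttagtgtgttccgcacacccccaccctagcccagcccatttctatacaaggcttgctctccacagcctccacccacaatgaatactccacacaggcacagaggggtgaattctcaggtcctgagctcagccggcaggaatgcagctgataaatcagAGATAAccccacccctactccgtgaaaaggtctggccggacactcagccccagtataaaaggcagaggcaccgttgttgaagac
Both strands of 32851 promoters of the same length were searched. The NKX2-5 motif was present in 10.1% of them, the T-box motif in 11.8% and the GATA motif in 10.0%. The E-box CANNTG, the motif of basic helix-loop-helix factors such as Hand2, was present in 66.2%, with matches at -195 and -66 in Nppa and at -99 in Nppb that are not capitalised. The GATA motif was searched as AGATAA alone. The letters TGATAA, which differ from it only in the leading base, stand in both stretches without capitals. The capitals therefore do not show that Nppb has a GATA site and Nppa lacks one. A match is a description of the letters and was not tested as a binding site.

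Values are the deposited log2 signals, with 1 probe set kept for each of 19938 genes, the one with the highest mean. A gene was tested if it exceeded the median of the whole array on at least 3 of the 28 arrays, which left 12211 genes. A difference is HNGMT minus HGMT on the log2 scale ± standard error from limma, in a fit over all 28 arrays with the array set as a term. A gene was called, and is said to have risen or fallen, where its Benjamini-Hochberg adjusted p was under 0.05. All 6 arrays belong to a set of 15 arrays with like value distributions, which were taken to have been scaled together. Their array medians ran from 6.89 to 6.91 in HNGMT and from 6.89 to 6.95 in HGMT. A gene below those medians may be background, since the files give no detection calls, and the size of its fold is then uncertain. Precision is limited by the small number of arrays, and the 95% interval of a difference had a median half-width of 0.14.

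HNGMT replicate 1 stood apart from the other 5 arrays. The root mean square difference over genes was 0.327 to 0.378 for the pairs of arrays that include it, and 0.104 to 0.149 for the other pairs. HNGMT replicates 2 and 3 did not stand together apart from HGMT, and differed from each other by 0.143. Replicate 2 differed from the HGMT arrays by 0.142 to 0.149, and replicate 3 by 0.109 to 0.149. HNGMT replicate 1 lay at least 2-fold above the mean of HNGMT replicates 2 and 3 for 144 genes and at least 2-fold below it for 2, Mir145a and Mir143. The numbers were 3 above and 14 below for HNGMT replicate 2, 0 and 39 for HNGMT replicate 3, and 0 and 0 for each HGMT array, each set against the others of its group. Short non-coding RNAs made up part of the excess: 24 of 38 snoRNA genes were at least 2-fold higher, with a median of 1.50, and so were 3 of 4 snRNA genes. Among 11759 protein-coding genes 106 were at least 2-fold higher, and the median difference was -0.09. Rnu3a, a gene of the U3 RNA that acts in ribosomal RNA processing, read 10.92, 6.81 and 7.00 on HNGMT replicates 1 to 3, against 6.50, 6.48 and 6.41 on the HGMT arrays. Rny1, a Y RNA gene, read 9.68, 6.23 and 6.19 in HNGMT, against 6.27, 5.90 and 6.16 in HGMT. The same array read lower for the smooth-muscle microRNA genes Mir145a (7.60, against 9.01 and 8.97 on HNGMT replicates 2 and 3) and Mir143 (7.18, against 8.28 and 8.17). The chromatin gene Kmt2d read 8.30, 9.11 and 9.16 in HNGMT, against 9.32, 9.24 and 9.24 in HGMT, and the cytolinker gene Plec read 9.09, 9.99 and 9.93, against 9.96, 9.93 and 9.94. Differences are given with all arrays unless stated, and also without HNGMT replicate 1 where that moved a value that is named by over 1.5 times or changed its call.

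**Figure D1:**
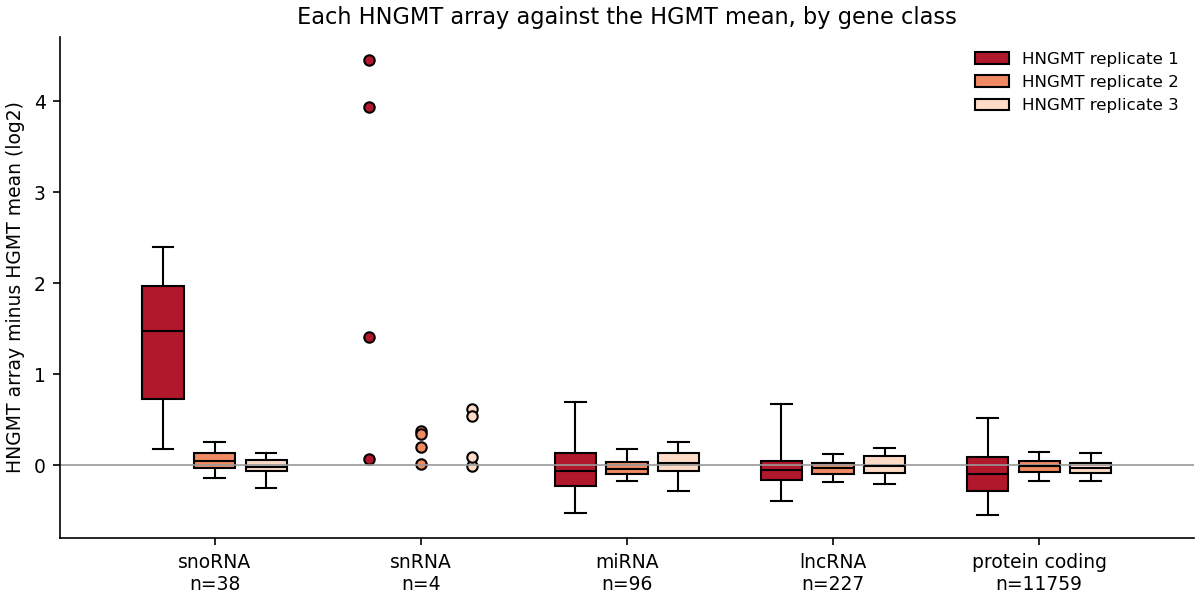
Log2 signal of each HNGMT array minus the mean of the 3 HGMT arrays, for genes tested in 5 RefSeq gene classes. Boxes show the quartiles and median and whiskers the 5th to 95th percentile, while the 4 snRNA genes are drawn as points. Replicate 1 has snoRNA and snRNA medians of 1.47 and 2.67, and replicates 2 and 3 have snoRNA medians of 0.04 and -0.02.

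With all arrays, 76 genes were called (0.622% of 12211). Of these 16 rose in HNGMT (0.131%) and 60 fell (0.491%), beside a median of -0.04 over all genes. An unadjusted p under 0.05 was found for 3131 genes (25.6%), and for 927 (7.59%) without HNGMT replicate 1. The 8 changes of at least 2-fold were all rises, in Nppa and in genes of myeloid cells. The falls were small, with a median of -0.29 and the largest at -0.72 in Plekha6. All 76 genes kept their direction without HNGMT replicate 1. Both fits share all the other arrays and the genes were picked on them, so this was nearly fixed in advance. HNGMT replicate 1 was the lowest HNGMT array for 56 of the 60 falls, and for 55.2% of all genes tested. Without that array 14 genes were called (0.115%), 3 higher (0.0246%) and 11 lower (0.0901%). They shared 7 genes with the 76: Nppa, Gpd1, Lipe, Scd1, Srebf1, Mir218-2 and Ece1. The count also moved with every other array left out in turn. It was 2407 without HNGMT replicate 2, 3143 without HNGMT replicate 3, 1 without HGMT replicate 1, 5 without HGMT replicate 2 and 11 without HGMT replicate 3. Without HGMT replicate 1 the 1 called gene was Nppa, and Nppa was likewise the 1 gene called when the fit held the 15 arrays of the set or the 6 arrays alone. Each of the other 75 calls was therefore lost in those fits. With each array centred on its median 11 rose and 31 fell, and with quantile normalization 16 rose and 24 fell, against 16 and 60 on the deposited scale.

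**Figure D2:**
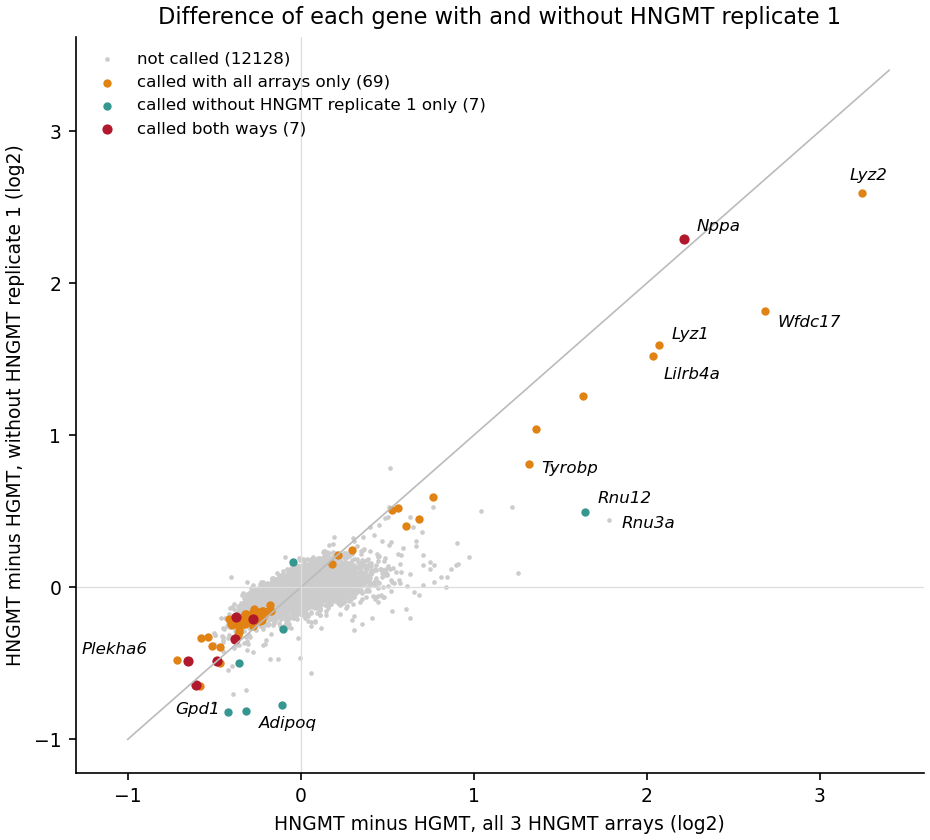
Difference HNGMT minus HGMT of each of the 12211 genes tested, in log2 units, with all 3 HNGMT arrays (horizontal) and without HNGMT replicate 1 (vertical). Colours show in which fit a gene was called, and the grey diagonal marks equal values. Nppa lies near the diagonal at 2.22 and 2.29, while Lyz2, Wfdc17 and the U-RNA genes lie below it.

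Nppa had the smallest p of all genes tested. Its signal was 8.23, 8.42 and 8.48 in HNGMT, against 6.13, 6.38 and 5.98 in HGMT. Every HNGMT array was above every HGMT array, and replicate 1 lay with its replicates. The difference was 2.22 ± 0.13, a fold of 4.64 (limma, adjusted p = 6.37e-11), and 2.29 without HNGMT replicate 1 (adjusted p = 4.75e-10). The HGMT signal lay below the array median on all 3 arrays, so the size of the fold is uncertain.

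Among the combinations measured in the same set of arrays, HNGMT held the middle place for Nppa. The mean was 11.37 ± 0.14 in DMT, 10.55 ± 0.31 in NGMT, 8.38 ± 0.13 in HNGMT, 7.67 ± 0.17 in GMT and 6.16 ± 0.20 in HGMT (SD, n = 3 each). No neighbours in this order overlapped: the lowest HNGMT array (8.23) was above the highest GMT array (7.87), and the highest HNGMT array (8.48) was below the lowest NGMT array (10.21). Nppa was thus higher with NKX2.5 both with Hand2 and without it, and the level with both factors stayed below that of NGMT. NGMT exceeded GMT by 2.99 over all arrays, a comparison that shares no array with HNGMT against HGMT. The NKX2.5 difference with Hand2 minus that without it was -0.78 ± 0.16, which did not pass the adjustment over all genes (limma, adjusted p = 0.0724). Arrays of the other sets had different value distributions, so they are given as levels alone. These were 12.18 ± 0.06 in NGMT (n = 3) and 6.25 ± 0.02 in 0F (n = 3) of set 1, and 13.15 ± 0.04 in DMNT (n = 4) of set 3.

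**Figure D3:**
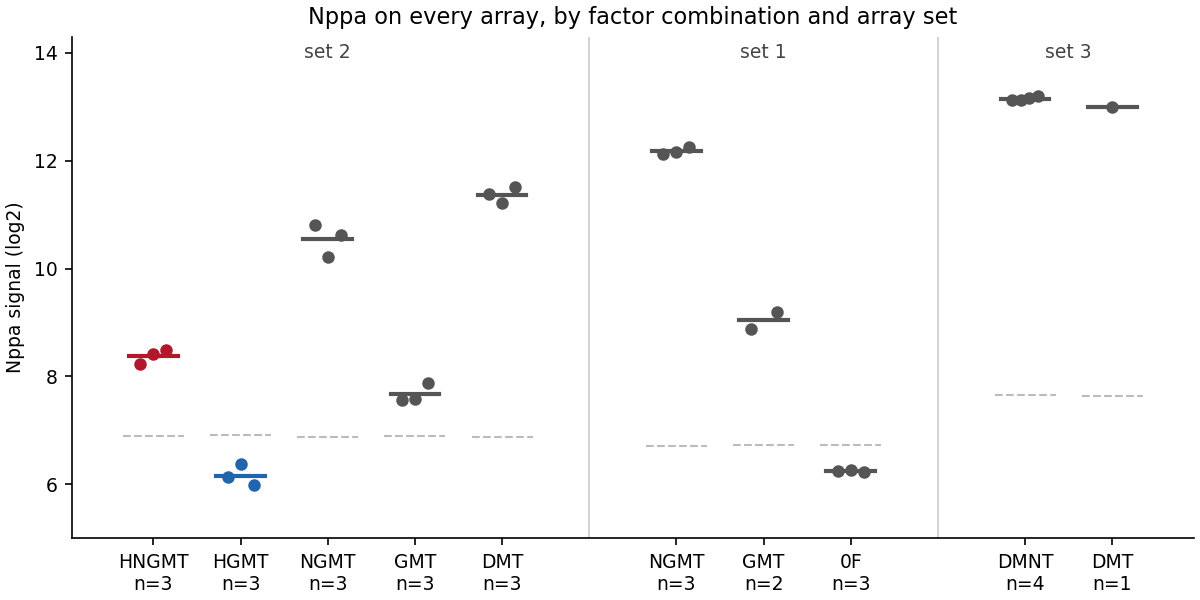
Nppa signal (log2) on each of the 28 arrays, by factor combination and array set. Points are arrays, solid bars are means and dashed bars are the mean array median of all probe sets. The 3 HNGMT arrays sit between 8.23 and 8.48, above the dashed bar, and the 3 HGMT arrays between 5.98 and 6.38, below it.

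The rest of the natriuretic peptide system was not called. Nppa was 1 of 8 tested members of that list to rise and none fell, with a median difference of 0.10. Nppb read 6.99, 6.77 and 6.88 in HNGMT, against 6.77, 6.63 and 6.76 in HGMT. The difference was 0.16 ± 0.15 (limma, adjusted p = 0.534), and all but 1 of these 6 values lay below the array median. Without HNGMT replicate 1 it was 0.10. Nppb was called higher in NGMT than in GMT over all arrays (0.73, limma, adjusted p = 0.00111), but not within the shared set (0.38, adjusted p = 0.954). The difference between the 2 additions of NKX2.5 was not called for it (-0.57, adjusted p = 0.19, and -0.23, adjusted p = 0.815, within the set). Npr3, the clearance receptor that removes natriuretic peptides, read 9.15, 9.39 and 9.05 in HNGMT and 9.02, 9.06 and 9.07 in HGMT. Its difference of 0.15 ± 0.18 was not called. Corin and Furin, which encode proteases that cut the precursors of atrial and brain natriuretic peptide, differed by 0.05 ± 0.07 and -0.27 ± 0.09, and Furin by -0.09 without HNGMT replicate 1. Npr2, the receptor of C-type natriuretic peptide, differed by -0.23 ± 0.08 with all arrays and by -0.06 without that replicate, and its ligand gene Nppc by 0.08 ± 0.24. Neither was called. Mme, the gene of neprilysin, which degrades these peptides, differed by 0.11 ± 0.19, and by 0.03 without that replicate. Nppc and Mme were chosen for naming after their values were seen.

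None of the 6 probe sets of the series' delivered factors was called (limma, 0 at an unadjusted p under 0.05), with differences from -0.18 (Tbx5) to 0.08 (Myocd, which neither mixture contained). Without HNGMT replicate 1 the Tbx5 difference was 0.01 and the Hand2 difference turned from -0.07 to 0.03. The Nkx2-5 probe set read 7.99, 7.92 and 8.07 in HNGMT, against 7.97, 8.04 and 7.96 in HGMT. It did not follow the delivery of NKX2.5, and its NGMT and GMT means in the same set were 7.96 and 7.94. Hand2 read 9.80, 10.05 and 10.15 in HNGMT and 9.97, 10.15 and 10.09 in HGMT. Both groups were far above NGMT (7.32) and GMT (7.35) of the same set, which did not receive Hand2. Gata4 differed by -0.10 ± 0.08 and Mef2c by -0.10 ± 0.08. No label says whether these probe sets cover the delivered sequences, so the Nkx2-5 signal does not check the labels.

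Other genes described as NKX2-5 targets gave no call beyond Nppa, which was 1 of 23 tested members to rise while none fell (median -0.03). Nppa was likewise the 1 call among 9 atrial genes (median -0.13). Gja5, the gene of the atrial and conduction-system connexin 40, read 6.38, 6.02 and 6.50 in HNGMT, against 6.55, 6.57 and 6.71 in HGMT. All HNGMT values were below all HGMT values, both groups lay below the array median, and the difference of -0.31 ± 0.15 was not called (limma, adjusted p = 0.194). All HNGMT arrays lay below all HGMT arrays for 13.7% of all genes tested. Hopx, a homeodomain-only cofactor of heart muscle, differed by -0.01 ± 0.07 (-0.05 without HNGMT replicate 1). Ryr2, the calcium release channel of the sarcoplasmic reticulum, differed by -0.14 ± 0.16, Atp2a2, its calcium pump, by -0.18 ± 0.08 and Hcn4, a pacemaker channel, by -0.25 ± 0.11. Without HNGMT replicate 1 these 3 differences were -0.09, -0.04 and -0.12. Actc1, cardiac alpha-actin, differed by 0.04 ± 0.20.

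No member of 7 lists of heart muscle genes was called in HNGMT against HGMT. The selected cells read 12.37 to 12.62 for Tnnt2, cardiac troponin T, in HNGMT and 12.62 to 12.68 in HGMT. For Actc1 they read 9.89 to 10.37 in HNGMT and 9.94 to 10.21 in HGMT. Myh6, the alpha myosin heavy chain, lay close to the array medians, at 6.87, 7.10 and 7.39 in HNGMT and 7.43, 7.12 and 7.39 in HGMT. The Tnnt2 difference was -0.14 ± 0.08, and -0.06 without HNGMT replicate 1, and that of Myh6 was -0.19 ± 0.11, and -0.07 without it. The fibroblast collagen gene Col1a1 read 11.76 to 12.43 in HNGMT and 12.35 to 12.44 in HGMT, far above the array medians in both groups. None of 10 thick filament, 12 thin filament, 16 Z-disc, 10 sarcoplasmic reticulum, 16 ion channel, 5 ventricular and 29 other cardiac transcription factor genes tested was called in either direction, with list medians from -0.10 to 0.01. These are 95 distinct genes, of which 16 (16.8%) had an unadjusted p under 0.05 in limma, against 25.6% of all genes tested. The lists were grouped because they held no call, and heart lists with a call, such as the atrial list, were left out. The share therefore does not show that heart muscle genes differed less than other genes. Some of the differences that missed the threshold were as large as those called. Myl7, the atrial myosin light chain, read 9.26, 8.09 and 8.56 in HNGMT, against 8.87, 8.92 and 9.29 in HGMT. With all arrays the groups overlapped, and the difference was -0.39 ± 0.22 (limma, adjusted p = 0.268). Without HNGMT replicate 1 they did not overlap, and the difference was -0.70 and not called (adjusted p = 0.292). With array weights Myl7 was called at -0.95 (adjusted p = 0.00171). Tnnc1, cardiac troponin C, had a difference of 0.31 ± 0.14 that was 0.09 without HNGMT replicate 1. Chrm2, the muscarinic receptor of the heart, had a difference of -0.38 ± 0.15, and Cacna1c, the L-type calcium channel, of -0.33 ± 0.12, or -0.15 without that replicate. The filamin gene Flnc differed by -0.27 ± 0.10 and by -0.06 without HNGMT replicate 1. Casq2, the calcium store protein calsequestrin, differed by 0.04 ± 0.08.

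Among 14 connexin and intercalated disc genes Dsc2 was the 1 member called, and it fell, as did 0.491% of all genes tested. Dsc2, the cardiac desmocollin, read 6.58, 6.82 and 6.85 in HNGMT, against 7.29, 7.09 and 6.94 in HGMT. The groups did not overlap, the difference was -0.36 ± 0.08 (limma, adjusted p = 0.0359), and without HNGMT replicate 1 it was -0.27 and not called (adjusted p = 0.3). N-cadherin (Cdh2), which joins heart muscle cells at the disc, differed by -0.26 ± 0.08, and by -0.14 without that replicate, with no call. In smooth muscle 0 of 21 genes were called (limma, 4, or 19%, at an unadjusted p under 0.05, against 25.6% of all genes tested). The light chain gene Myl9 read 9.44, 9.15 and 9.26 in HNGMT and 8.74, 8.74 and 9.10 in HGMT, a difference of 0.42 ± 0.10 that just missed the threshold (limma, adjusted p = 0.0546). The kinase gene Mylk had a difference of -0.35 ± 0.13, and of -0.17 without HNGMT replicate 1.

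In the adipocyte list 3 of 14 tested members fell in HNGMT and none rose, while 0.491% of all genes tested fell. The list median was -0.34, against -0.04 over all genes. No member was called in the fits of the 15 or of the 6 arrays. Of the 14, 6 had every HNGMT array below every HGMT array, which held for 13.7% of all genes tested. The mean level of the list was 9.26, 8.86 and 8.74 on the HNGMT arrays, against 9.36, 9.10 and 9.34 on the HGMT arrays, and these ranges overlapped. In such bulk RNA fewer fat-like cells and less of these transcripts per cell cannot be told apart. Scd1, the stearoyl-CoA desaturase that makes monounsaturated fatty acids, read 11.98, 12.07 and 11.89 in HNGMT, against 12.64, 12.26 and 12.49 in HGMT. It fell by 0.48 ± 0.08 on the log2 scale (limma, adjusted p = 0.015), with the same difference and a call without HNGMT replicate 1 (adjusted p = 0.0457). Plin1, the perilipin that coats fat droplets, read 8.03, 7.79 and 7.87 in HNGMT and 8.59, 8.35 and 8.49 in HGMT. Its difference of -0.58 ± 0.12 was -0.65 and no longer called without that array. Lep, the gene of the fat-cell hormone leptin, was called at -0.47 ± 0.11, with all 6 values below the array median.

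Gpd1, the glycerol-3-phosphate dehydrogenase that supplies the backbone of triglycerides, fell with all arrays and without HNGMT replicate 1. It read 7.67, 7.64 and 7.50 in HNGMT, against 8.39, 7.94 and 8.30 in HGMT. The difference was -0.61 ± 0.10 (limma, adjusted p = 0.0112), and without HNGMT replicate 1 it was -0.64 (adjusted p = 0.0211). HGMT was the highest combination of the set for Gpd1, and HNGMT was not the lowest. The mean was 8.21 in HGMT, 7.61 in HNGMT, 7.46 in NGMT, 7.34 in GMT and 7.26 in DMT. In set 1, which had different value distributions, it was 12.05 in 0F, 6.77 in GMT and 6.72 in NGMT. Lipe, the hormone-sensitive lipase that releases fatty acids, read 8.21, 8.35 and 8.30 in HNGMT and 8.79, 8.58 and 8.65 in HGMT. It was called both with all arrays (-0.38 ± 0.06) and without replicate 1 (-0.34). Srebf1, a transcription factor of fatty acid synthesis, read 8.75, 8.99 and 8.92 in HNGMT and 9.15, 9.17 and 9.17 in HGMT, and was called both ways (-0.28 ± 0.05 and -0.21). The triglyceride lipase gene Pnpla2 (-0.36 ± 0.07), the fatty acid synthase gene Fasn (-0.32 ± 0.07) and the acyltransferase gene Dgat1 (-0.23 ± 0.05) were called with all arrays but not without replicate 1, where Fasn was at -0.17. Srebf1, Pnpla2, Fasn, Dgat1 and Ece1 were picked for naming after their values were seen. Ece1, the endothelin-converting enzyme, read 9.91, 10.46 and 10.43 in HNGMT, against 10.63, 10.65 and 10.64 in HGMT. It was called at -0.38 ± 0.08 with all arrays and at -0.20 without replicate 1 (limma, adjusted p = 0.0495).

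Other fat-cell genes were high on HNGMT replicate 1 and low on replicates 2 and 3. Adipoq, the gene of adiponectin, read 9.14, 7.77 and 7.52 in HNGMT, against 8.60, 8.19 and 8.58 in HGMT. With all arrays it differed by -0.31 ± 0.23 and was not called, and without replicate 1 it was called at -0.81 (limma, adjusted p = 0.00488). Retn, the gene of the fat-cell hormone resistin, read 9.17, 7.36 and 7.00 in HNGMT and 7.96, 7.67 and 8.22 in HGMT, and was called at -0.77 in the fit without replicate 1. Fabp4, a fatty acid binding protein of fat cells chosen after its values were seen, read 11.35, 10.39 and 10.25 in HNGMT and 10.97, 10.61 and 10.81 in HGMT. It was not called with all arrays (-0.13) or without replicate 1 (-0.47). Without that array 3 of 14 adipocyte genes were called lower, Adipoq, Retn and Scd1, while 0.0901% of all genes tested were. The list median was -0.49, against -0.02 over all genes. Aqp7, the glycerol channel of fat cells, was also called then at -0.50, as was the acute-phase gene Orm1 at -0.82. Pparg, the main transcription factor of fat cells, differed by -0.05 with all arrays and by -0.10 without replicate 1, and was not called.

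Of 13 tested macrophage genes 3 rose in HNGMT and none fell, while 0.131% of all genes tested rose. The list median was 0.50, against -0.04 over all genes. The count of rises in the list was 1 with a filter of 6 arrays and 0 in the fits of the 15 or of the 6 arrays. Of the 13, 6 had every HNGMT array above every HGMT array, which held for 3.37% of all genes tested. The mean level of the list was 7.35, 7.04 and 6.42 on the HNGMT arrays, against 6.25, 6.28 and 6.25 on the HGMT arrays, so HNGMT replicate 3 lay nearest to HGMT. Lyz2, the macrophage lysozyme, read 11.03, 10.50 and 7.66 in HNGMT, against 6.29, 6.61 and 6.56 in HGMT. Its difference of 3.25 ± 0.56 was the largest of all genes tested (limma, adjusted p = 0.0137), and without HNGMT replicate 1 it was 2.60 and not called (adjusted p = 0.0781). The SD of Lyz2 was 1.81 over the HNGMT arrays and 0.18 over the HGMT arrays. The standard error pools the spread of all groups, so it does not measure the wide spread within HNGMT. High Lyz2 signal was not limited to HNGMT. It was 8.59 on NGMT replicate 4, in the same set and above HNGMT replicate 3, and 11.86, 11.60 and 11.77 on the 0F arrays of set 1. Tyrobp, a signalling adaptor of myeloid receptors, read 8.38, 7.33 and 6.38 in HNGMT and 6.03, 6.17 and 5.93 in HGMT, a difference of 1.32 ± 0.26, and of 0.81 without replicate 1. C1qc, a chain of complement C1q, rose by 0.53 ± 0.11 with all values below the array median.

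Several other genes that rose are known from myeloid cells and belong to no list here. Wfdc17 read 10.90, 9.65 and 6.96 in HNGMT, against 6.42, 6.68 and 6.35 in HGMT (2.68 ± 0.50). Lyz1, a near copy of Lyz2 whose probe set may share its targets, read 9.41, 9.17 and 6.79 in HNGMT, against 6.18, 6.49 and 6.48 in HGMT. The leukocyte receptor genes Lilrb4a (2.04 ± 0.38) and Lilr4b (1.63 ± 0.33) are also near copies of each other. C3ar1, the complement C3a receptor, rose by 1.36 ± 0.30 and Plek, pleckstrin, by 0.76 ± 0.18. Lilr4b and C3ar1 were chosen after their values were seen, and the groups overlapped for both genes. Lilr4b read 7.45, 7.43 and 5.24 in HNGMT, against 4.93, 5.27 and 5.02 in HGMT. C3ar1 read 8.61, 8.54 and 6.78 in HNGMT, against 6.63, 6.86 and 6.36 in HGMT. Wfdc17, Lyz1, Lilrb4a, Lilr4b, C3ar1 and Plek were not called without HNGMT replicate 1. Lyz1 was then at 1.59, Lilrb4a at 1.52, Lilr4b at 1.26 and C3ar1 at 1.04. HNGMT replicate 3 was the lowest HNGMT array for 13 of the 16 rises, HNGMT replicate 1 the highest for 13, and all HGMT arrays were below the array median for 10. Matching shares over all genes tested were not taken, so these counts do not set the rises apart from other genes. Fcer1g, an adaptor of Fc receptors also chosen after its values were seen, read 8.13, 6.42 and 5.68 in HNGMT, against 5.51, 5.59 and 5.46 in HGMT, and was not called (1.22, and 0.53 without replicate 1). Without HNGMT replicate 1 none of the 13 macrophage genes was called (limma, median 0.40), while 6 had an unadjusted p under 0.05 (46.2%, against 7.59% of all genes tested). Without HNGMT replicate 2 the count of macrophage genes called was 5, and without HNGMT replicate 3 it was 7. Calls grew over the whole array in these fits. Of all 12211 genes tested 470 and 1062 were called higher there, against 16 with all arrays.

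Of 18 macrophage genes with a named probe set, 5 did not pass the filter on dim genes. The surface gene Ptprc (CD45) read 6.07, 6.21 and 5.94 in HNGMT, against 5.98, 5.98 and 5.90 in HGMT. It, Itgam, Aif1, Cd163 and Ctss lay below the array median in both groups. The cathepsin gene Ctss read 6.01, 5.77 and 5.55 in HNGMT, against 5.31, 5.46 and 5.34 in HGMT, with every HNGMT array above every HGMT array. Cd68, a lysosomal protein of macrophages that other cells make too, read 9.52, 9.42 and 9.03 in HNGMT and 9.24, 9.15 and 9.19 in HGMT. Csf1r, the receptor that macrophages need to survive, read 6.81, 6.91 and 6.68 in HNGMT and 6.55, 6.70 and 6.53 in HGMT, with no call. C1qb read 7.14, 6.84 and 5.95 in HNGMT, against 6.08, 5.91 and 6.00 in HGMT, also without a call. The part of other cells in these results was not tested.

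**Figure D4:**
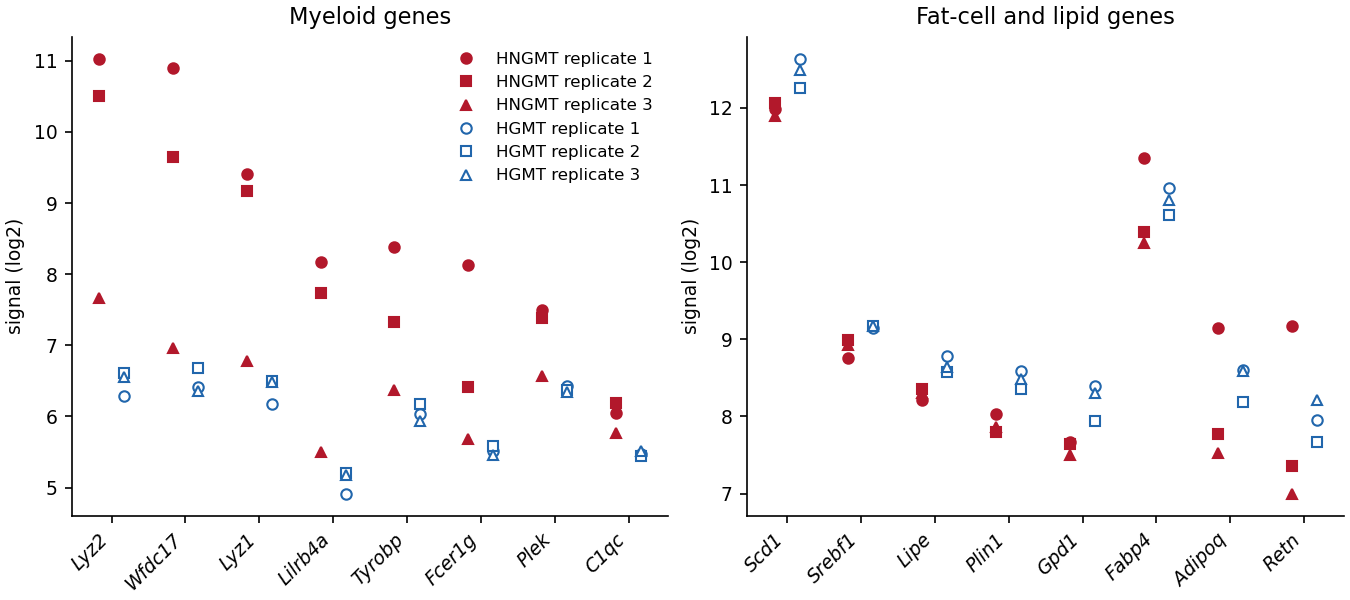
Log2 signal of 8 myeloid genes (left) and 8 fat-cell and lipid genes (right) on each HNGMT array (filled red) and each HGMT array (open blue). Circles are replicate 1, squares replicate 2 and triangles replicate 3. HNGMT replicate 3 lies close to HGMT for most myeloid genes, and HNGMT replicate 1 lies above HGMT for Fabp4, Adipoq and Retn, whose other HNGMT arrays lie below.

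A few calls lay outside these groups. Over all genes tested 0.131% rose and 0.491% fell. Among oxidative metabolism genes 1 of 34 rose, Fabp3, the fatty acid binding protein of heart muscle. It read 8.79, 8.16 and 8.04 in HNGMT, against 7.61, 7.57 and 7.77 in HGMT (0.68 ± 0.15, limma, adjusted p = 0.0321), and was not called without replicate 1 (0.45, adjusted p = 0.205). Among inflammatory genes 1 of 22 rose, the chemokine Ccl5, at the edge of the threshold. It read 8.53, 7.56 and 8.30 in HNGMT, against 7.62, 7.59 and 7.37 in HGMT, with replicate 2 inside the HGMT range. The translation release factor gene Etf1 rose by 0.22 ± 0.05 and Paip1, a partner of the poly(A)-binding protein, by 0.30 ± 0.07. Without HNGMT replicate 1 the long non-coding RNA gene Norad and the U12 RNA gene Rnu12 were called higher. Norad read 10.22, 10.88 and 10.87 in HNGMT, against 10.68, 10.72 and 10.71 in HGMT, a difference of -0.05 with all arrays and 0.17 without replicate 1. Rnu12 read 11.35, 7.80 and 8.03 in HNGMT, against 7.47, 7.39 and 7.39 in HGMT. Trappc4, named with them as the last of the 14 calls, fell by 0.27 in that fit. The largest falls with all arrays included Plekha6 (7.89, 8.46 and 8.73 in HNGMT, against 9.20, 8.94 and 9.09 in HGMT), the pseudokinase gene Nrbp2 (-0.57 ± 0.12), Fry (-0.54 ± 0.13), Leng8 (-0.51 ± 0.12), the heparanase-like Hpse2 (-0.46 ± 0.09), the Golgi mannosidase gene Man2a2 (-0.42 ± 0.10) and the kinase gene Tyk2 (-0.41 ± 0.09). Neither Etf1, Paip1 nor any of these 7 falls was called without HNGMT replicate 1, where Nrbp2 was at -0.33, Fry at -0.33, Man2a2 at -0.21 and Tyk2 at -0.24.

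Mir218-2 was the 1 microRNA gene called with and without HNGMT replicate 1. Its mature product is shown with the seed, bases 2 to 8, in capitals, since the seed sets which transcripts a microRNA pairs with. It is the RefSeq sequence at chr11:35616840-35616860 on the plus strand (GRCm38.p6).
mmu-miR-218-5p: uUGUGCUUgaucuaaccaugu
Mir218-2 read 6.38, 6.76 and 7.00 in HNGMT, against 7.38, 7.51 and 7.20 in HGMT, and the groups did not overlap. The difference was -0.65 ± 0.11 (limma, adjusted p = 0.0112), and -0.48 without replicate 1 (adjusted p = 0.0457). Its hairpin lies inside Slit3, a gene of a secreted guidance protein. Slit3 read 10.97, 11.70 and 11.79 in HNGMT, against 11.89, 12.01 and 11.94 in HGMT, and its difference of -0.46 ± 0.11 missed the threshold (limma, adjusted p = 0.0573) and was -0.20 without replicate 1. Slit3 was named for its position after values were seen. Whether the probe set reads the hairpin, the mature RNA or the host transcript is not stated in any label.

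No gene was called in 10 further lists with all arrays: 39 fibroblast and collagen genes, 23 of TGF-beta and BMP signalling, 14 of the cell cycle, 25 p53 targets, 28 of the interferon response, 14 of skeletal muscle, 11 endothelial, 12 epithelial, 10 of cartilage and bone and 4 neural genes. They hold 179 distinct genes, of which 33 (18.4%) had an unadjusted p under 0.05 in limma, against 25.6% of all genes tested. These lists too were grouped because they held no call, so the share does not set their genes apart from others. The list medians ran from -0.13 to 0.02 with all arrays and from -0.05 to 0.05 without HNGMT replicate 1. In TGF-beta signalling the transducer Smad3 read 9.84, 10.37 and 10.39 in HNGMT, against 10.51, 10.59 and 10.50 in HGMT. All HNGMT values were below all HGMT values, but the difference of -0.33 ± 0.09 was not called and was -0.15 without replicate 1. The inhibitory Smad6 differed by -0.22 ± 0.07 with all arrays and by -0.13 without replicate 1. The collagen receptor Ddr2 differed by -0.20 ± 0.06 and the collagen gene Col5a1 by -0.24 ± 0.10, and without replicate 1 by -0.08 and -0.07. The endothelial adhesion gene Cdh5 differed by -0.26 ± 0.07, and the mesothelial factor Wt1 by -0.21 ± 0.09. The alkaline phosphatase gene Alpl of bone differed by -0.41 ± 0.14, and by -0.24 without replicate 1. The cell cycle genes E2f1 and Ccnd2 differed by -0.19 ± 0.05 and -0.16 ± 0.07, each lowest on HNGMT replicate 1, and by -0.09 and -0.01 without it.

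**Figure D5:**
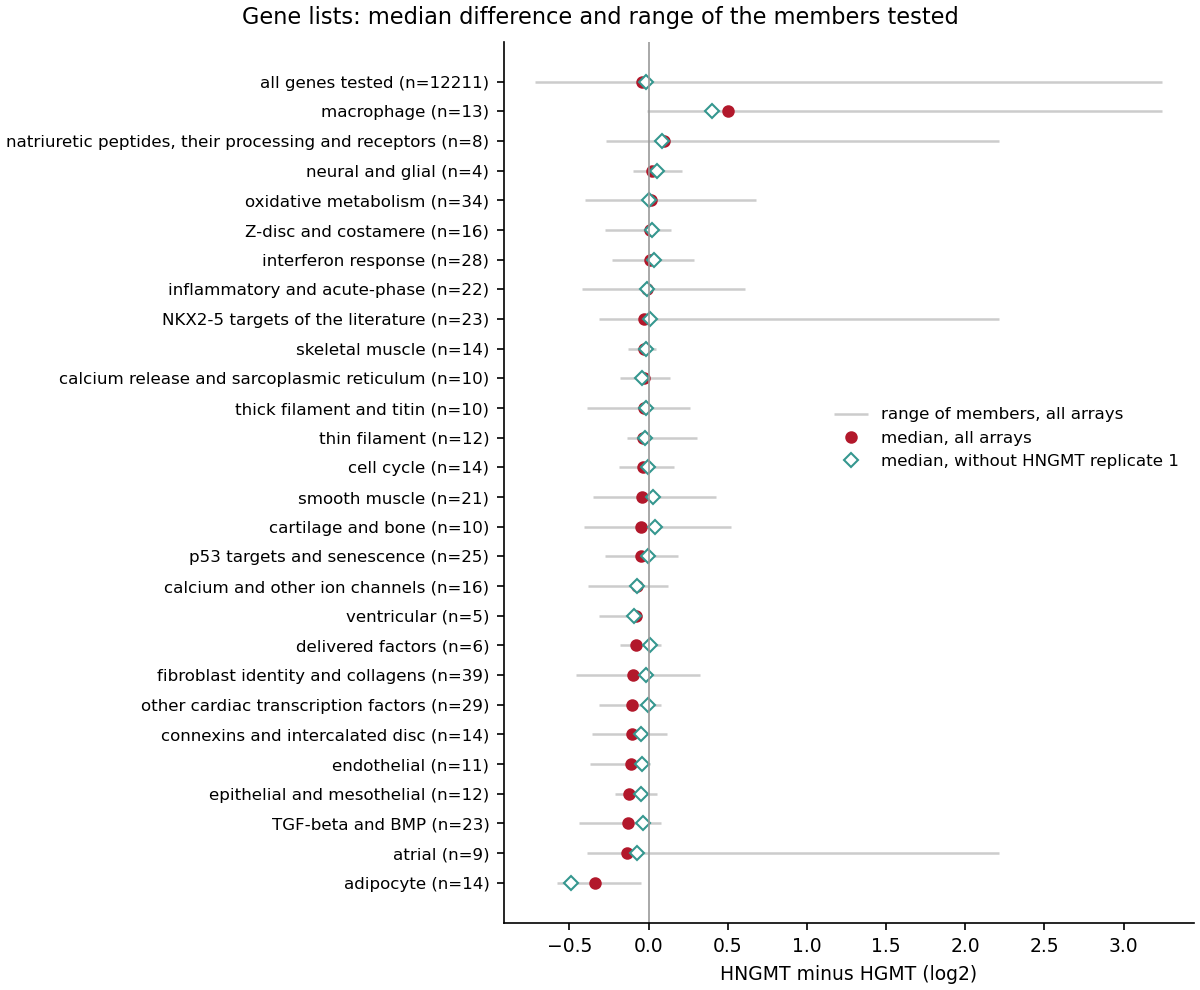
Median difference HNGMT minus HGMT (log2) of the tested members of each gene list, with all arrays (filled circles) and without HNGMT replicate 1 (open diamonds). Grey lines span the lowest to the highest member with all arrays. The macrophage list has medians of 0.50 and 0.40 and the adipocyte list of -0.34 and -0.49, and the medians over all genes tested are -0.04 and -0.02.

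Whether NKX2.5 made a different change with Hand2 than without it was tested as the difference HNGMT minus HGMT less the difference NGMT minus GMT. No gene passed the adjustment (0%, limma, smallest adjusted p = 0.067), while 2044 had an unadjusted p under 0.05. The genes of smallest p were Slc39a6, a zinc transporter (-0.29), Phyhip (0.48), Gpd1 (-0.65) and the monocarboxylate transporter Slc16a12 (0.41). For Gpd1 the difference with Hand2 was -0.61 and that without it 0.04. The count was 0 also without HNGMT replicate 1, but 349 without HNGMT replicate 2, 611 without HNGMT replicate 3 and 65 without GMT replicate 4. NGMT against GMT itself gave 199 calls over 6 and 5 arrays (1.63%), 84 higher (0.688%) and 115 lower (0.942%), and 3 genes were called the same way in both additions. These were Nppa, higher, and the choline transporter-like Slc44a2 and Tmem150a, lower, both chosen for this overlap after values were seen. Slc44a2 differed by -0.25 ± 0.05 with Hand2 and -0.16 without it, and Tmem150a by -0.23 ± 0.05 and -0.17. Of the 76 genes, 45 had the same sign in NGMT against GMT. The share over all genes tested was not taken, so this count does not show that the 2 additions acted alike. Within the shared set of arrays NGMT against GMT had 1 call, Nppa.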

How the data were processed

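Total RNA was biotin-labelled and hybridised to mouse expression arrays, per the labels' protocols. The authors deposited 1 matrix of log2 signal for 35556 probe sets on 28 arrays. MAS5 is the 1 tool in the submitters' processing notes, and no source used here says how signals were scaled. Groups came from sample titles. Arrays whose sorted values lay within 0.1 of each other formed 3 sets, and HNGMT and HGMT lie in 1 of them.

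Of the probe sets, 21789 have 1 symbol in the platform annotation, 1621 have several and 12146 none. No symbol changed through its Entrez ID in RefSeq (GRCm38.p6). Differences were fitted with limma 3.58.1 and R 4.3.3 (group and set terms, eBayes with trend, two-sided, 19 residual degrees of freedom), and the fit was tested on simulated data. The simulated noise of a gene had the same spread on every array, and no array stood apart. That test therefore does not show how the fit handles HNGMT replicate 1 or a wider spread within HNGMT. Intervals cover the spread between arrays pooled over all groups, which can be smaller than the spread within HNGMT. Same-numbered HNGMT and HGMT arrays were checked for pairing.

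The comparison, its members and the 27 gene lists (606 entries, 551 genes, 403 of them tested) were chosen with earlier results of these data known. Genes were named by rule: the 6 delivered factors, the 12 largest called rises and falls whose groups do not overlap, up to 4 called members of each list or else 2 of smallest p, the 4 of smallest p in the interaction, the 10 highest and 10 lowest on HNGMT replicate 1, the 8 largest called rises and falls without it, and 11 cardiac genes in any case. The rule gave 114 genes, of which the text names part. Cd68, Csf1r, C1qb, Ptprc and Col1a1 come from the cell type marker lists, and Itgam, Aif1, Cd163 and Ctss complete the macrophage list. Pparg, Trappc4 and the genes so marked in the text were added after values were seen. Promoters and microRNAs were matched by name to RefSeq tables.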

Additional observations from a re-analysis of the deposited data

How the results depend on the processing

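Nppa rose in all 19 alternatives run for HNGMT against HGMT, by 2.12 to 2.34 (adjusted p from 9.3e-14 to 0.00296, limma). No other gene was called in more than 13 of them. The count of genes called, 76 as reported, was 1 in the fit of 15 arrays and 1 in that of the 6 arrays alone, 40 with quantile normalization (16 higher and 24 lower), 42 with each array centred on its median (11 higher and 31 lower), 44 without the filter on dim genes and 816 with array weights. The macrophage and adipocyte counts, 3 and 3 as reported, were 0 and 0 in the fits of 15 and of 6 arrays, and 7 and 9 with array weights. With a filter of 6 arrays the macrophage count was 1. The interaction count, 0 as reported, was 2 with quantile normalization and 209 with array weights. Leaving out 1 array at a time gave 1 to 3143 genes called, 0 to 7 macrophage genes, 0 to 5 adipocyte genes and 0 to 611 genes in the interaction. Of 2 settings added after the data were seen, the fit of 15 arrays without HNGMT replicate 1 gave 1 gene called, 0 macrophage and 0 adipocyte genes. Array weights without that replicate gave 13 genes called, 0 macrophage and 2 adipocyte genes. The replicate block was fitted over 15 arrays (1 gene called, 0 macrophage and 0 adipocyte genes) and over the 6 arrays (1, 0 and 0). The deviations of same-numbered arrays correlated at 0.162, 0.005 and 0.055, so the numbers were not taken as pairs. Not every array correlated best with its own number, and this is a hint from the data and not from the design. Norad turned from -0.05 with all arrays to 0.16 with array weights, 0.17 without HNGMT replicate 1 and 0.16 with both, and it was -0.16 without HNGMT replicate 2. The Nppa interaction ran from -0.88 to -0.58 and was called in 5 of 28 alternatives. The cause of these changes was not tested. Depth is not defined for arrays, and genes below the array median may be background.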
